A study of Mus musculus with 162 samples.

Results

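Receptors for glutamate and GABA, the main excitatory and inhibitory transmitters of the mammalian brain, were examined through the genes that encode their subunits. The members were taken by symbol, as the genes named Gria, Grik, Grin, Grid, Grm, Gabr or Gabbr with a subunit letter or number, which found 47 of the 53686 genes in the count table. They fall into 4 AMPA, 5 kainate, 7 NMDA, 2 delta and 8 metabotropic glutamate genes, 19 GABA-A genes (6 alpha, 3 beta, 3 gamma, 3 rho and 4 others) and 2 GABA-B genes. Male C57Bl/6J mice aged 8 to 9 weeks had been without food for 0, 2, 8, 12, 18 or 22 h when tissue was collected at 1 time of day, with 3 mice per time and 18 mice in all. Polyadenylated RNA of 9 organs of each mouse was sequenced. With 5 of the 162 libraries left out, there were 18 of the olfactory bulb (OB), 16 of the brain (BRN, telencephalon and diencephalon), 18 of the cerebellum (CBL) and 18 of the brainstem (BST). The other organs had 17 libraries of the stomach (STM), 18 of the liver (LIV), 17 of interscapular brown fat (iBAT), 18 of perigonadal white fat (pgWAT) and 17 of posterior-subcutaneous white fat (psWAT). Total counts per library ran from 8224940 to 17704828 in OB, from 3045845 to 12108290 in BRN, from 6487419 to 22071004 in CBL and from 6998492 to 11776354 in BST. Outside the brain they ran from 6851903 to 13769280 in STM, from 6959200 to 12451777 in LIV, from 3156101 to 27801717 in iBAT, from 5784709 to 19829510 in pgWAT and from 4099281 to 9802381 in psWAT.

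AMPA, kainate and NMDA receptors are tetrameric cation channels opened by glutamate, and GABA-A receptors are pentameric chloride channels whose subunit composition sets where they sit and how they respond. Metabotropic glutamate and GABA-B receptors act through G proteins. Many of the subunit genes differ between cell types, so that a bulk library reports the mixture of cells in the tissue together with the level in each cell, and fewer cells of a type cannot be told apart here from less RNA per cell.

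Transcripts known from each tissue were checked first. The summed level of 14 cerebellar genes had a median of 9542 CPM in CBL (8536 to 10530) against medians of 298, 366 and 555 in OB, BRN and BST. The 10 olfactory bulb genes summed to 2616 to 3028 CPM in OB and to at most 637 in the other regions. The 11 genes of the telencephalon and diencephalon summed to 839.2 to 1265 CPM in BRN, 427 to 544 in OB, 219 to 280 in CBL and 65.1 to 98.1 in BST, where Hcrt was among the genes with a median of 0. The 10 brainstem genes summed to 505 to 841 CPM in BST and to at most 62.4 in the other regions. Each list was thus highest, without overlap, in the region it was drawn up for. In BST, the cerebellar genes stood at 1151 CPM in replicate 2 of 0 h and 912 in replicate 1 of 2 h, while the other 16 libraries held 489 to 619. Outside the brain, the stomach genes had a median of 170800 CPM in STM, the liver genes 89690 in LIV and the brown fat genes 7094 in iBAT. The white fat genes had a median of 27600 CPM in pgWAT (3690 to 39390), 11430 in iBAT (8658 to 23070) and 3523 in psWAT (425 to 25750). The white fat list thus did not set psWAT apart from iBAT.

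The members together took a median of 0.563% of OB counts (0.473 to 0.600), 0.449% in BRN (0.303 to 0.617), 0.711% in CBL (0.679 to 0.755) and 0.353% in BST (0.338 to 0.407). A median of at least 1 CPM was reached by 39, 41, 42 and 43 members in OB, BRN, CBL and BST. Gabrp, Grm6 and Gabrr3 stayed at or under 0.576 CPM in every library of the 4 regions.

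Each region was compared with the mean of the other 3 in 1 fit of the 70 brain libraries, which tested 44 of the members among 18496 genes. A gene was called at an adjusted p under 0.05 and a log2 fold change above 1 in size. In OB, 7 members were called higher, 15.9% against 8.62% of all genes, and 9 lower, 20.5% against 10.4%. In BRN, 7 were called higher, 15.9% against 13.7% of all genes, which is near the background, and 6 lower, 13.6% against 6.89%. The library names fall into 2 blocks of numbers, called series A and B here, and 11 of the 16 BRN libraries were of series B while every OB, CBL and BST library was of series A, so BRN against the other regions is in part B against A. Every CBL library was sequenced in lane 3 and every BST library in lane 4, so these regions differ in lane too. With series A alone (5 BRN libraries), an alternative chosen after seeing the data, BRN kept 11 of its 13 calls, lost Gabrb2 and Gabrr2 and gained Gabbr2, Gabra4, Grm3 and Grm5. With 0 h only, where all libraries were of series A, it kept 8 of 13 and gained 6. In CBL, 11 of the 44 were called higher, against 7.64% of all genes, and 11 lower, against 12.9%. In BST, 7 were called higher, 15.9% against 8.97% of all genes, and 9 lower, 20.5% against 7.94%. The members' median log2 fold change and that of all genes were 0.04 and -0.01 in OB, 0.31 and 0.04 in BRN, -0.38 and -0.03 in CBL, and -0.02 and -0.04 in BST.

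**Figure D1:**
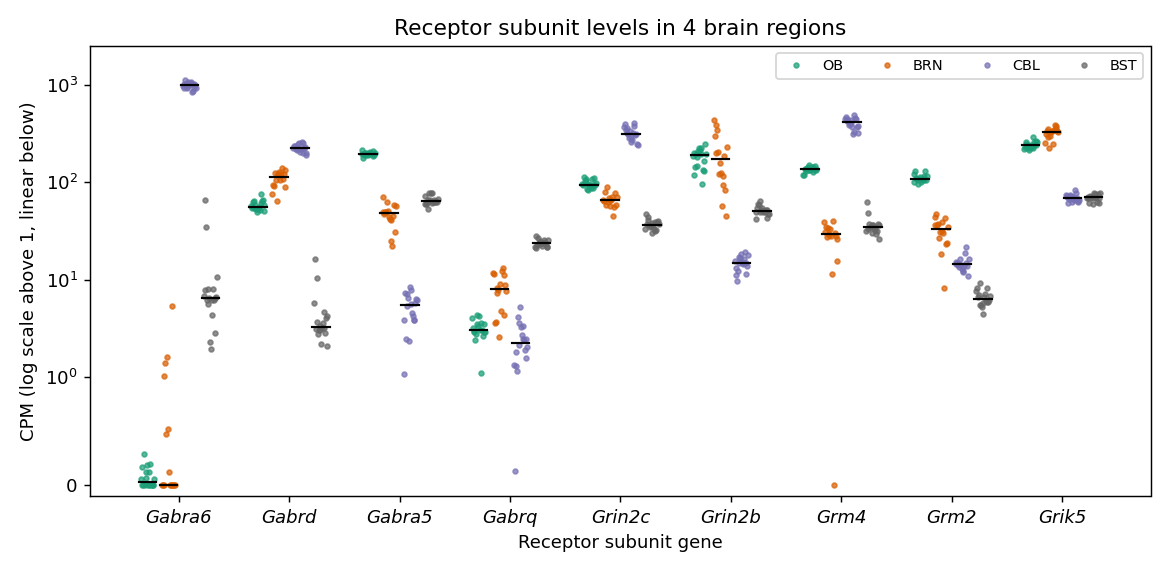
Level of 9 member genes in every brain library, with CPM (counts scaled by the library's total) on the vertical axis, logarithmic above 1 and linear below, and the genes on the horizontal axis, each split by colour into the 4 regions. Each point is 1 library and the black bar is the region's median: the CBL libraries held 847 to 1113 CPM of Gabra6, and the BST libraries held 2.08 to 16.2 CPM of Gabrd, below every library of the other regions.

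AMPA receptors carry most fast excitatory transmission. Gria1, which encodes the GluA1 subunit, had the highest median level per kb of exon of the 4 AMPA genes in OB (95.4 CPM per kb, 79.2 to 106.9), BRN (51.05, 29.3 to 79.3) and CBL (85.8, 72.3 to 103.3). Gria4, for GluA4, had a median of 75.98 CPM per kb in CBL (63.7 to 85.5, overlapping Gria1) and of 32.98 in BST (30.6 to 35.7), where Gria1 had 30.3 (25.7 to 36.6) and the ranges overlapped. Before scaling by length, Gria4 ran from 401 to 539 CPM in CBL, 192.7 to 225 in BST, 147.8 to 216 in OB and 35.8 to 109.7 in BRN, so that every CBL library lay above and every BRN library below those of the other regions. The log2 fold change of Gria4 in BRN was -1.83 ± 0.07 (SE; adjusted p 6.59e-40), and it was called higher in CBL. Gria1 had at most 221 CPM in BST (median 183.2) against 437 or more in every OB and CBL library, and Gria1 and Gria2 were called lower in BST. Gria3 had medians of 116.2 to 127 CPM in the 4 regions and was called in none.

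Kainate receptor genes encode the low-affinity subunits Grik1, Grik2 and Grik3 and the high-affinity subunits Grik4 and Grik5. Grik5 ran from 225 to 388 CPM in BRN (median 330.4) and 213.1 to 292 in OB, and from 61.4 to 83.5 in CBL and 59.8 to 78.0 in BST. The fitted log2 fold change of Grik5 was 1.76 ± 0.04 in BRN (adjusted p 2.07e-52) and -1.32 ± 0.05 in BST (4.48e-40), and it was called lower in CBL too. Grik3 had 97.6 to 214 CPM in OB (median 174.5) against medians of 40.8 in BRN, 57.1 in CBL and 45.6 in BST, with a log2 fold change of 1.70 ± 0.08 (adjusted p 2.00e-31) and an overlap with BRN, whose highest library had 100.6. Grik4 ran from 3.52 to 6.28 CPM in OB and from 5.71 to 29.8 in BRN, 11.4 to 19.5 in CBL and 20.3 to 28.6 in BST, and its log2 fold change in OB was -2.16 ± 0.08 (1.15e-38). Grik1 (26.7 to 40.7 CPM) and Grik2 (84.7 to 109.6 CPM) in CBL lay above every library of the other regions, and Grik2 was called higher there (1.02), a call lost with 0 h only (0.85) and with series A alone (0.93).

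NMDA receptors join the obligatory Grin1 subunit to Grin2 subunits that set channel kinetics, or to Grin3 subunits that lower calcium permeability. Grin2c, which encodes GluN2C, had 239 to 405 CPM in CBL (median 315) against 83.8 to 113.1 in OB, 44.6 to 89.1 in BRN and 30.1 to 47.3 in BST. Its log2 fold change was 2.30 ± 0.05 in CBL (adjusted p 3.61e-58) and -1.77 ± 0.06 in BST (9.18e-44). Grin2c took a median of 92.6% of the summed level per kb of the 4 Grin2 genes in CBL (89.7 to 94.8), 55.1% in OB, 44.01% in BRN and 44.6% in BST. These shares depend on exon length, which was 5037 bases for Grin2c and 24842 for Grin2b. Before scaling by length, Grin2c had a lower median CPM than Grin2b in OB (94.4 against 190.1), BRN (65.2 against 172.8) and BST (36.6 against 50.55), but not in CBL. Grin2b, for GluN2B, ran from 9.75 to 19.2 CPM in CBL, below every library of the other regions, and from 96.8 to 249 in OB, 44.5 to 434 in BRN and 41.96 to 63.9 in BST. The log2 fold change of Grin2b was -3.09 ± 0.16 in CBL (2.52e-28), 2.01 ± 0.12 in BRN (1.46e-24) and 1.69 ± 0.12 in OB (3.19e-21). Grin2d was lower in CBL as well, with 7.14 to 11.3 CPM against 13.1 or more elsewhere. Grin2a had 27.2 to 163 CPM in BRN and was called higher there, a call that was lost when the libraries that had failed quality control were kept (log2 fold change 1.00).

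Grin3b had 2.98 to 6.06 CPM in BST, above every library of the other regions, with a log2 fold change of 2.96 ± 0.18 (adjusted p 2.77e-26), and 0 to 0.608 CPM in OB, with a log2 fold change of -2.62 ± 0.26 (2.64e-15). On the opposite strand, exons of Tmem259 overlap 32.1% of the exon bases of Grin3b, and the strand setting used in counting is not stated, so these low counts are uncertain. Grin1 had medians of 449 and 481 CPM in OB and BRN and of 258 and 259 in CBL and BST, and was called in none of the 4, and neither was Grin3a.

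**Figure D2:**
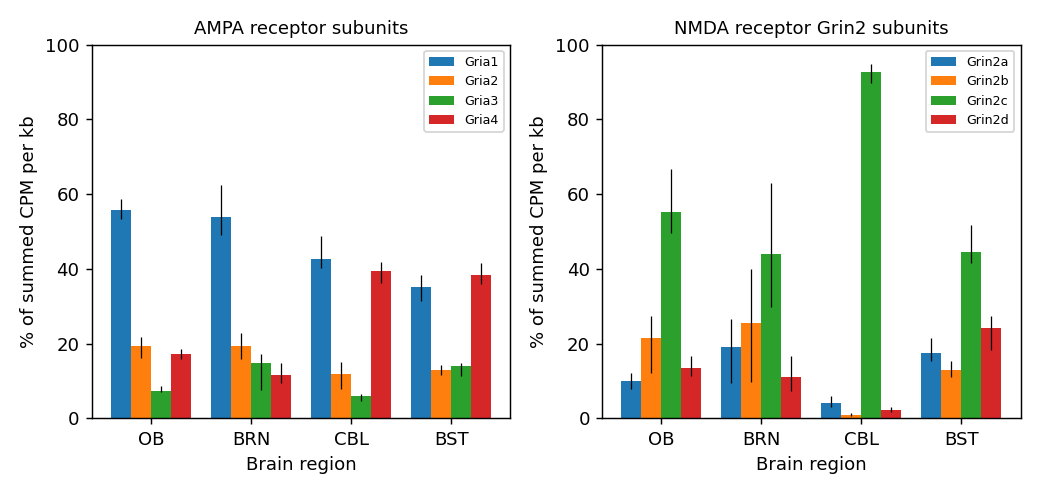
Share of each subunit gene in the summed CPM per kb of exon of its group, in percent on the vertical axis, for the 4 AMPA and 4 Grin2 genes, with the 4 brain regions on the horizontal axis. Bars are medians over libraries and lines run from the lowest to the highest library: Grin2c took 92.6% of the Grin2 genes in CBL, and Gria1 took 55.9% of the AMPA genes in OB.

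The delta receptor Grid1 binds cerebellins across the synapse. It had medians of 28.4 to 51.3 CPM and was called in none of the 4 regions.

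Among the metabotropic glutamate receptors, Grm5 couples to phospholipase C, and Grm2, Grm3, Grm4, Grm6, Grm7 and Grm8 lower cyclic AMP. Grm4 had 316 to 484 CPM in CBL (median 411.5) and 119.6 to 150.1 in OB, against 0 to 39.6 in BRN (median 29.1) and 25.98 to 62.98 in BST (median 34.3). In BRN, 15 of the 16 libraries had a count of Grm4. The log2 fold change of Grm4 was 2.91 ± 0.08 in CBL (adjusted p 7.19e-45), -2.04 ± 0.11 in BRN (1.75e-27) and -1.66 ± 0.10 in BST (8.09e-25). Grm2 had 96.4 to 130.5 CPM in OB, above every library of the other regions, and 4.44 to 9.27 in BST. Fitted log2 fold changes of Grm2 were 2.84 ± 0.06 in OB (5.57e-54) and -2.50 ± 0.09 in BST (7.19e-41). Grm8 had 26.5 to 36.5 CPM in OB against at most 21.2 elsewhere, with a log2 fold change of 1.44 ± 0.06 (1.87e-34). Grm5 had 6.16 to 25.5 CPM in CBL against 25.7 or more in every other brain library, and was called lower. Grm3 was called lower in OB, with 7.42 to 16.7 CPM, and Grm7 was called in no region.

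The alpha subunits contribute to the GABA site and set the response to benzodiazepines. Gabra6 had 847 to 1113 CPM in CBL (median 995) and a level per kb of 399.9 there, the highest of the 47 members in any region. In OB its counts were at most 3 per library and in BRN its median was 0, so the fitted log2 fold changes of 10.13 ± 0.24 in CBL (adjusted p 2.68e-47), -7.84 ± 0.70 in OB (3.26e-16) and -3.85 ± 0.91 in BRN (1.28e-04) depend on the prior count. The calls in OB and BRN were lost with 0 h only. In BST Gabra6 had a median of 6.48 CPM and was called higher, with 1.56 ± 0.37 (1.49e-04). The 2 BST libraries with more cerebellar transcripts had 65.8 CPM in replicate 2 of 0 h and 34.8 in replicate 1 of 2 h, against 1.95 to 10.7 in the other 16. Without these 2 libraries, an alternative chosen after their values were seen, the log2 fold change was 0.69 and the call was lost.

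Gabra5 had 178 to 215 CPM in OB, 22.3 to 71.1 in BRN, 53.6 to 78.0 in BST and 1.09 to 8.37 in CBL. Its log2 fold change was 2.89 ± 0.08 in OB (adjusted p 4.20e-48) and -4.13 ± 0.11 in CBL (9.96e-47), with no overlap with any other region in either case. Gabra5 took 37.6% of the summed alpha level per kb in OB (34.5 to 42.6). In CBL Gabra6 took 75.6% (72.0 to 77.3), and in BST Gabra3 took 37.3% (lowest 25.6). Before scaling by length, Gabra5 did not have the highest median CPM of the alpha genes in OB, nor did Gabra3 in BST. Gabra3 had 19.3 to 37.6 CPM in CBL against 64.1 or more in every other brain library, with a log2 fold change of -2.40 ± 0.07 (9.35e-48), and was called higher in OB (1.05), a call lost with series A alone (0.97). Gabra2 was called in none of the 4 regions and Gabra4 was called lower in BST.

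Of the beta genes, which complete the GABA site, Gabrb2 had 171.2 to 231.5 CPM in CBL, above every other library, and was called higher there and lower in BRN (-1.26), where the call was lost with 0 h only (-0.56) and with series A alone (-0.69). Gabrb1 had medians of 50.9 to 85.6 CPM and was called in none. The gamma subunits anchor receptors at synapses, and Gabrg3 had 1.90 to 5.05 CPM in CBL against 11.2 or more in every other brain library, with a log2 fold change of -2.51 ± 0.08 (adjusted p 6.43e-44) in CBL and 1.60 ± 0.06 in BRN (2.63e-37). Gabrg1 had 47.9 to 63.5 CPM in BST, above every other library, and was called higher.

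The delta subunit gene Gabrd, for receptors outside synapses, had 189.4 to 257 CPM in CBL, 64.2 to 139.5 in BRN, 49.7 to 75.5 in OB and 2.08 to 16.2 in BST. Fitted log2 fold changes of Gabrd were 2.80 ± 0.09 in CBL (adjusted p 7.49e-40), 1.64 ± 0.10 in BRN (1.73e-24; lost with 0 h only) and -4.62 ± 0.14 in BST (9.80e-42). The 2 BST libraries with more cerebellar transcripts held its 2 highest BST values, 16.2 and 10.5 CPM, against 2.08 to 5.73 in the other 16. Gabrq, for the theta subunit, had 21.1 to 28.01 CPM in BST against at most 13.1 in every other brain library, with a log2 fold change of 2.64 ± 0.12 (1.97e-33). Gabre, for the epsilon subunit, had 2.88 to 6.11 CPM in BST and 0 to 12.9 in BRN, against 0 to 1.15 in CBL. In log2 fold change, Gabre stood at 2.36 ± 0.20 in BST (4.45e-18), 1.57 ± 0.23 in BRN (3.39e-09) and -2.34 ± 0.29 in CBL (1.97e-11).

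The rho genes, known from the retina, were low. Gabrr2 had medians of 0.347, 1.95, 1.32 and 2.91 CPM in OB, BRN, CBL and BST, with a log2 fold change of -2.53 ± 0.25 in OB (adjusted p 3.46e-15) and 1.52 ± 0.19 in BST (3.48e-11). In BRN Gabrr2 was called higher at 1.00. It lost this call, and Grin3b gained one as lower, with the 4 regions of each animal blocked (0.91 and -1.04), with DESeq2, without a filter, with RLE scaling, with all libraries and without the 2 BST libraries with more cerebellar transcripts, and Gabrr2 lost it with 0 h only and with series A alone (0.61) too. Gabrr1 had medians of at most 0.470 CPM and was called lower in BST. This call was lost without a filter, with RLE scaling, with all libraries, with 0 h only and with series A alone. It was lost too without BRN replicate 3 of 2 h and replicate 2 of 18 h. Of the GABA-B genes, whose products work as a pair, Gabbr1 had medians of 572 to 717.5 CPM and was called in no region. Gabbr2 had 28.3 to 61.8 CPM in OB against 93.0 or more in every other brain library, and was called lower in OB and higher in CBL, where the call was lost with 0 h only and with series A alone (0.98 in both).

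Several GABA-A genes lie side by side, which the choice of members did not use. On chromosome 11 (GRCm38), Gabra6 (42306437 to 42321072) and Gabrb2 (42419757 to 42629028) lie close together, and both were called higher in CBL and lower in BRN, while Gabra6 alone was called in OB (lower) and BST (higher). Of these, both BRN calls and the OB call were lost with 0 h only, that of Gabrb2 in BRN with series A alone too, and the BST call without the 2 libraries with more cerebellar transcripts. Gabrg3 and Gabra5 lie close together on chromosome 7, and both were called lower in CBL, while Gabra5 alone was called higher in OB (2.89 against 0.38 for Gabrg3) and Gabrg3 alone in BRN (1.60 against 0.36 for Gabra5). Gabre, Gabra3 and Gabrq lie together on chromosome X, and the 3 were called lower in CBL, while Gabre and Gabrq were called higher in BST and Gabre alone in BRN (1.57). In OB Gabra3 was called higher (1.05) and Gabre (-1.59) and Gabrq (-1.31) lower, the last 2 not with 0 h only. Gabra2, Gabra4, Gabrb1 and Gabrg1 on chromosome 5 shared no call in the same region and direction.

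Genes that act with these receptors were read as a list of 69, of which 67 were tested. In OB 22 were called higher and 11 lower (8.62% and 10.4% of all genes), in BRN 13 and 10 (13.7% and 6.89%), in CBL 11 and 18 (7.64% and 12.9%), and in BST 10 and 21 (8.97% and 7.94%). All 5 glycine receptor subunit genes were called higher in BST, with the largest log2 fold change for Glra1 at 6.09 ± 0.18. Among 15 auxiliary subunits of glutamate receptors, BRN had 8 higher and 3 lower, with Cacng3 at 2.51, and BST had 0 higher and 8 lower, with Cnih2 at -1.63. Of the 14 glutamate receptor scaffold genes, 9 were called lower in BST, and Homer3 was called higher in CBL at 4.22. The vesicular glutamate transporter Slc17a7 was called higher in BRN at 1.57 and lower in BST at -2.79, where Slc17a6 was called higher at 2.67. The GABA-synthesising enzyme Gad1 was called higher in OB at 2.39. Cbln1, which encodes a secreted synaptic ligand, was called higher in CBL at 4.18. Examples from this list were chosen after their values were seen.

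Fasting was tested within each region by a joint test of the 6 times, by each time against 0 h and by a linear trend over hours. In OB the joint test called 8 of 40 members, against 15.4% of all genes, which is near the background. Gabra2 in OB had 66.8, 82.8 and 84.5 CPM at 0 h, 83.9, 107 and 95.4 at 8 h, 63.8, 61.99 and 60.7 at 18 h, and 61.03, 65.4 and 67.7 at 22 h (adjusted p 0.00441). Grik2 had 66.3, 69.5 and 61.98 CPM at 0 h and 37.6, 51.7 and 52.4 at 18 h (0.00888), with every 18 h library below every 0 h library. All OB libraries of 0 and 2 h were sequenced in lane 3 and all of 12, 18 and 22 h in lane 4, so these times differ in lane too, and only 8 h had both lanes. Gria2 had 561, 593 and 492 CPM at 0 h and 339.6, 465 and 443 at 18 h (0.013). Grik3 had 190.6, 166.4 and 148.4 CPM at 0 h and 97.6, 139.1 and 135.8 at 18 h (0.0139). Grin2a and Gabrb1 were called too.

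Without 18 h, an alternative chosen after the values were seen, 0 members were called in OB against 0.428% of all genes. Gabra2, Gria2 and Grik2 held without any 1 library, while the number called moved with that of all genes: without replicate 1 of 18 h 3 were called against 6.18% of all genes, without replicate 3 of 8 h 5 against 7.54%, and without replicate 3 of 0 h 15 against 22%. With the sequencing lane as a covariate, 4 were called (Gabra2, Gria2, Grik2 and Grik3) against 7.02% of all genes, and with exon-length offsets 4 against 6.49%, of which 2 (Gabra2 and Grik3) were shared. No single time against 0 h called a member in OB by edgeR, with 0.544% of all genes called at any time, nor did DESeq2, while 1, 5, 6, 22 and 7 members had an unadjusted p under 0.05 at 2, 8, 12, 18 and 22 h, beside 3.42, 10.2, 7.33, 31.2 and 9.92% of all genes. The trend called 0 members by edgeR against 0.317% of all genes (0.108% rising and 0.209% falling), 2 by DESeq2, and 10 had an unadjusted p under 0.05, beside 16.8% of all genes. At 18 h the members' median log2 fold change was -0.26, against 0.00 for all genes. The members are long, with a median exon length of 6451 bases for those tested against 3856 for all genes tested. Each library's log2 deviation from its region's mean was therefore regressed on log2 exon length over genes, and the slopes of the 18 h libraries in OB were -0.15, -0.04 and -0.06 per doubling of length against -0.04 to 0.07 in the others. Whether the trend with length accounts for the lower levels at 18 h was not tested.

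**Figure D3:**
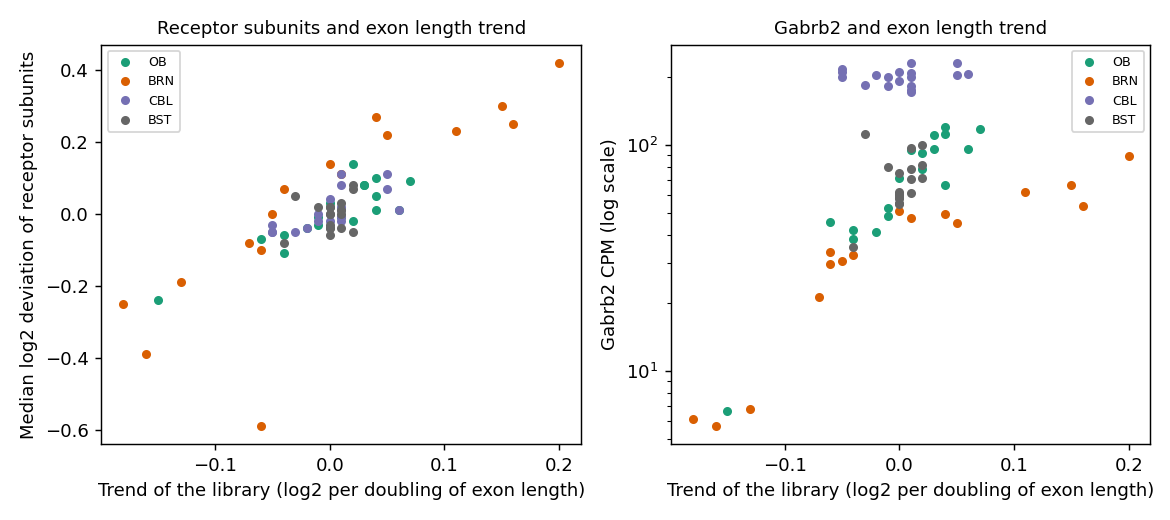
Members and the trend with exon length, each point 1 brain library, with the library's slope of log2 deviation per doubling of exon length on the horizontal axis. The left panel has the members' median log2 deviation from the region's mean on the vertical axis and the right panel Gabrb2 in CPM on a log scale, where the OB libraries held 6.65 to 120.3 CPM and the BRN libraries 5.71 to 89.8.

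In BRN the joint test called 0 of 42 members by edgeR, against 0.00597% of all genes, and 5 by DESeq2, and 12 had an unadjusted p under 0.05, 28.6% against 16.6% of all genes. Single times against 0 h called 3 members, 7.14% against 5.93% of all genes, which is near the background. The trend called 5, 11.9% against 5.88%, of which 1 rose, 2.38% against 3.44%, and 4 fell, 9.52% against 2.44%. Grin2b in BRN had 434, 301 and 390.3 CPM at 0 h, 199, 339.7 and 205 at 2 h, 122.1 and 158.8 at 8 h, 122.9, 57.1 and 116.9 at 12 h, 94.2 and 186.9 at 18 h and 83.9, 44.5 and 228 at 22 h. Its trend was -0.64 ± 0.17 log2 per 10 h (adjusted p 0.0398), and it was called lower at 12 h (-1.78 ± 0.43, 0.0311) and 22 h (-1.53 ± 0.42, 0.0448), with no overlap with 0 h. Grik3 had 100.6, 61.6 and 82.5 CPM at 0 h, 31.6, 24.7 and 39.6 at 12 h and 27.5, 26.7 and 44.7 at 22 h. The trend of Grik3 was -0.48 ± 0.11 (0.0294), and it was called lower at 12, 18 and 22 h. At 18 h only 2 libraries were kept, with 14.45 and 41.91 CPM of Grik3. Gabbr2 (-0.31 ± 0.08, 0.0347) and Gria2 (-0.31 ± 0.09, 0.0477) fell and Grik5 rose (0.21 ± 0.06, 0.0489). Grik2 was called lower at 12 h only (-1.14 ± 0.27, 0.0224), with 42.2, 18.1 and 25.5 CPM against 73.6, 80.7 and 58.4 at 0 h.

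**Figure D4:**
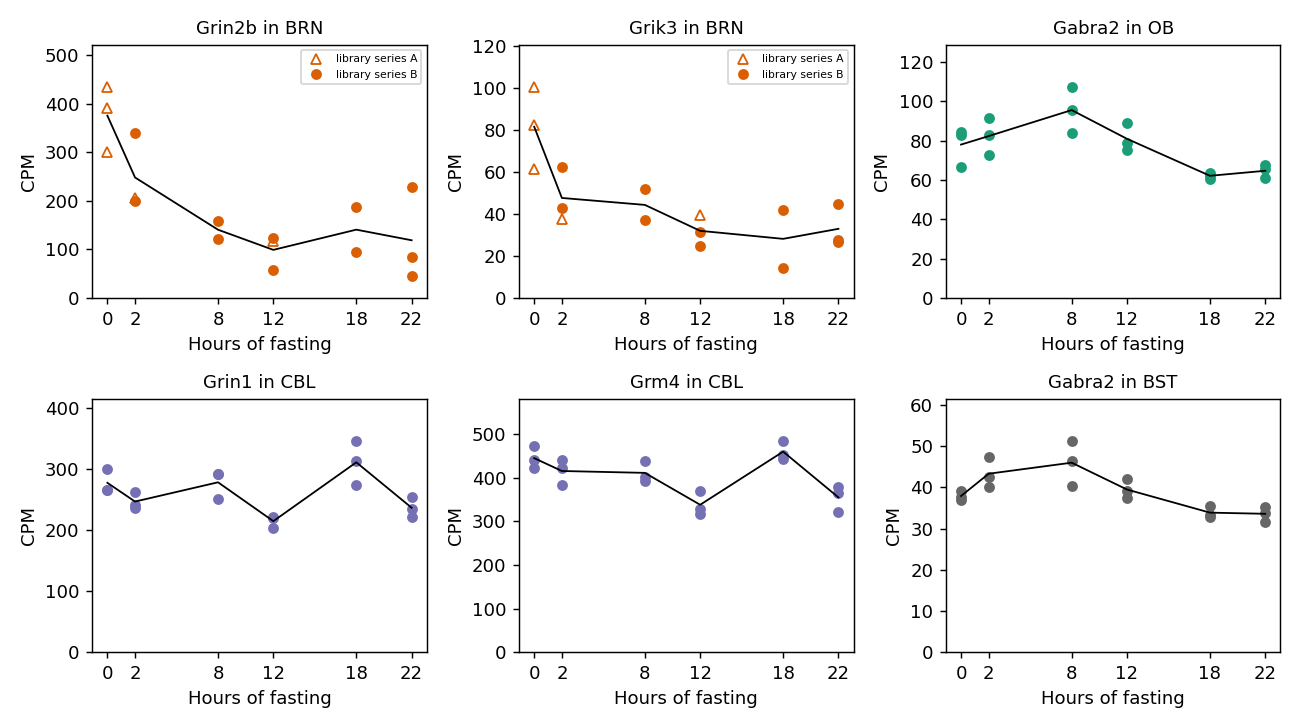
Level of member genes in each library over hours of fasting, with CPM on the vertical axis and hours on the horizontal axis. Points are libraries and the black line joins the means, and in the BRN panels open triangles are library series A and filled circles series B: Grin2b in BRN had 301 to 434 CPM at 0 h and 44.5 to 228 at 22 h.

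All 3 BRN libraries of 0 h belonged to series A, which also held replicate 3 of 2 h and replicate 3 of 12 h, while the other 11 were of series B. Series and time thus overlap in part: Grin2b had 205 CPM in the series A library of 2 h against 199 and 339.7 in series B, and 116.9 at 12 h against 122.9 and 57.1. With the series as a covariate 0 members and 0 of all genes had a called trend or a call at any time, with trends of -0.56 for Grin2b and -0.39 for Grik3. Within series B alone 0 members and 0 of all genes had a called trend, with -0.45 and -0.33. With exon-length offsets Grik5 was the 1 member with a called trend, against 0.872% of all genes. The slopes on exon length were 0.20, 0.15 and 0.16 at 0 h in BRN, and -0.13, -0.18 and 0.05 at 22 h.

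Single libraries changed these counts, and those of all genes with them. No member and 0 of all genes had a called trend in BRN without any 1 of the 0 h libraries, without replicate 2 of 2 h, or without replicate 1 or replicate 2 of 22 h, while 9 had one without replicate 2 of 12 h (11.1% of all genes) and 14 without replicate 3 of 22 h (20.7%). Without replicate 1 of 12 h there were 2 (2.69%), and without replicate 3 of 2 h, replicate 3 of 12 h or replicate 2 of 18 h there were 3 (3.40, 4.95 and 4.77%). At any time against 0 h, 0 members were called without any 1 of the 0 h libraries (at most 0.963% of all genes), 15 without replicate 3 of 18 h (30.3%) and 9 without replicate 3 of 22 h (12.8%). The joint test called 9 without replicate 3 of 18 h (17.3%) and 6 without replicate 3 of 22 h (5.76%). The 7 oligodendrocyte genes in BRN, with Mbp the most abundant, summed to 9131, 8802 and 6877 CPM at 0 h and 17000, 25180 and 9792 at 22 h, and the 10 neuron genes to 7961, 7368 and 7299 and to 6626, 5678 and 7593. Whether the cell content of the pieces accounts for the trend was not tested. The members' median trend in BRN was -0.17 and that of all genes -0.02.

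In CBL the joint test called 5 of 42 members, 11.9% against 2.99% of all genes. Grin1 in CBL had 265.8, 265.9 and 300 CPM at 0 h, 219, 203.5 and 221 at 12 h, 345.5, 313 and 274 at 18 h and 220.6, 234.9 and 254 at 22 h (adjusted p 0.0118). Grm4 had 440.5, 472 and 422 CPM at 0 h, 369, 316 and 329 at 12 h, 484, 451 and 444 at 18 h and 364, 321 and 379 at 22 h (0.0127). For both genes every 12 h and 22 h library lay below every 0 h and 18 h library. Gabra4 (0.0346) went the other way, with 55.2, 58.2 and 69.5 CPM at 12 h and 46.7, 38.7 and 44.4 at 18 h, and Grik3 (0.0395) had 59.5, 52.4 and 46.6 and then 67.3, 69.9 and 68.9. The count in CBL fell to 0 without replicate 2 of 12 h (0.138% of all genes), to 1 (Grin1) without replicate 3 of 12 h (0.200%), to 2 without replicate 2 of 18 h or of 22 h (0.954 and 0.319%) and to 3 without replicate 1 of 0 h or replicate 1 or replicate 2 of 2 h (1.37, 1.24 and 1.11%), and it was 8 without replicate 3 of 18 h (10.5%). No time against 0 h called a member by edgeR or DESeq2, with 0.676% of all genes called, and 1, 9, 10, 9 and 12 had an unadjusted p under 0.05, beside 3.27, 7.19, 18.3, 9.21 and 20.7% of all genes. The trend in CBL called 0 members by edgeR against 1.97% of all genes (0.532% rising and 1.44% falling), 3 by DESeq2, and 9 had an unadjusted p under 0.05, beside 17.6% of all genes.

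In BST the joint test called 1 of 43 members, Gabra2, 2.33% against 0.107% of all genes. Gabra2 in BST had 39.1, 36.8 and 37.6 CPM at 0 h, 46.4, 40.3 and 51.2 at 8 h, 33.3, 35.5 and 32.7 at 18 h and 33.9, 35.3 and 31.5 at 22 h (adjusted p 0.0445). It lost its call without any 1 of the 2 h or 22 h libraries, without replicate 1 or replicate 3 of 8 h, without replicate 1 or replicate 2 of 12 h and without replicate 2 or replicate 3 of 18 h. Single times against 0 h called 0 members and 0% of all genes by edgeR, with 0 by DESeq2, and 4, 8, 7, 4 and 2 members had an unadjusted p under 0.05, beside 5.71, 8.66, 9.37, 9.41 and 7.15% of all genes. The trend called 0 by edgeR against 0.0238% of all genes and 0 by DESeq2, with 11 at an unadjusted p under 0.05, beside 11.3% of all genes.

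The trend was compared between the 4 regions by an interaction test, which called 13 of 44 members, 29.5% against 17.0% of all genes. For Grik3 (adjusted p 0.00196) the trends in OB, BRN, CBL and BST were -0.09 ± 0.07, -0.48 ± 0.11, 0.05 ± 0.05 and -0.04 ± 0.04. For Grin2b (0.0021) they were 0.02 ± 0.11, -0.64 ± 0.17, 0.10 ± 0.07 and -0.09 ± 0.04, and for Gria4 (0.00204) -0.06 ± 0.04, -0.29 ± 0.09, 0.05 ± 0.03 and -0.01 ± 0.02. Gabrd (0.0041) had 0.05 ± 0.04, 0.26 ± 0.09, -0.05 ± 0.04 and -0.56 ± 0.22. The 2 BST libraries with more cerebellar transcripts, at 0 and 2 h, held the highest Gabrd values of BST. Without BRN, an alternative chosen after the values were seen, 0 of the members were called against 0.418% of all genes, and the adjusted p of the 13 ran from 0.0672 to 0.752. Keeping the libraries that had failed quality control left 7 called against 6.71%, and Gria4 lost its call.

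Of the synapse list, the joint test called 18 of 65 genes in OB (15.4% of all genes), 0 in BRN, 5 of 64 in CBL (2.99%) and 0 in BST, and the trend in BRN called 11 of 65, each falling (2.44%), among them Homer1 at -0.30 log2 per 10 h. These 11 calls were lost without any 1 of the 0 h libraries, replicate 2 of 2 h, or replicate 1 or replicate 2 of 22 h, where 0 of all genes had a called trend in BRN. In OB the trend called Slc17a6 alone at -0.22, and in CBL Slc1a2 alone at 0.14.

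Outside the brain the members took a median of 0.00832% of counts in STM, 0.00610% in LIV, 0.00364% in iBAT, 0.00814% in pgWAT and 0.0136% in psWAT. A median of at least 1 CPM was reached by 14 members in STM, 6 in LIV, 4 in iBAT, 10 in pgWAT and 10 in psWAT. Gabbr1 had 10.9 to 69.8 CPM in STM (median 32.1), 12.6 to 44.6 in pgWAT and 26.5 to 112.6 in psWAT, apart from 423 in replicate 3 of 12 h, a psWAT library that held cerebellar transcripts. Grik5 had 21.4 to 59.01 CPM in LIV (median 36.7), 8.80 to 47.1 in STM and 5.61 to 32.5 in iBAT. Gabra3 had a median of 17.2 CPM and Gria3 one of 10.3 in pgWAT, and Gabbr2 had 9.54 in LIV.

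The joint test called 2 of 17 members in STM, 11.8% against 6.55% of all genes, and 2 of 8 in LIV, against 16.0%. It called 0 in iBAT by edgeR (29% of all genes, 1 member by DESeq2 and 1 at an unadjusted p under 0.05 beside 41.6% of all genes), 0 in pgWAT (0% of all genes, 0 by DESeq2, 1 unadjusted beside 10.3%) and 0 in psWAT (0% of all genes, 2 by DESeq2, 10 of 16 unadjusted beside 19.1%). In psWAT without replicate 3 of 12 h, 3 of 13 had an unadjusted p under 0.05 beside 23.1% of all genes. Gria1 in STM had 3.30, 3.54 and 1.24 CPM at 0 h and 15.8, 7.16 and 15.4 at 18 h (joint adjusted p 0.0216). Grik5 in STM had 12.7, 19.1 and 8.80 CPM at 0 h, 36.5, 30.0 and 47.1 at 18 h and 43.1, 23.3 and 39.8 at 22 h (0.00921). In both cases the 18 h libraries lay above every 0 h library. All STM libraries of 0 and 2 h were sequenced in lane 5 and all of 12, 18 and 22 h in lane 6, and with the lane as a covariate, an alternative chosen after seeing the data that rests on 8 h, the 1 time with both lanes, the joint test and 18 h each called 0 members and 0% of all genes, with 2.01 ± 0.80 for Gria1 and 1.40 ± 0.56 for Grik5 at 18 h. The STM count fell to 0, 1 (Grik5) and 0 when replicate 1, 2 or 3 of every time was left out, beside 0.0252, 4.01 and 0.00632% of all genes. In the same libraries 10 neuron genes (Syp the most abundant, none with a median of 0) summed to 51.1, 53.6 and 63.5 CPM at 0 h and 155.9, 105.4 and 139.9 at 18 h. The 10 genes of enteric neurons and Schwann cells, of which Chat had a median of 0, summed to 41.8, 53.5 and 52.9 and to 125.8, 96.9 and 137.5. Whether a larger share of nerve tissue accounts for the rise was not tested. In LIV, Grik5 had 24.4, 29.3 and 24.1 CPM at 0 h, 44.7, 59.01 and 47.1 at 12 h and 51.5, 49.9 and 41.7 at 18 h (0.00583), and Gabbr2 had 8.54, 9.45 and 4.91 at 0 h and 10.3, 18.4 and 21.98 at 18 h (0.0412). The LIV count was 2, 0 and 0 when replicate 1, 2 or 3 of every time was left out, beside 9.09, 0 and 8.54% of all genes. The LIV libraries of 0 and 2 h were in lane 1 and those of 12, 18 and 22 h in lane 2, and with the lane as a covariate, chosen in the same way, the joint test called 0 members and 294 of all 14023 genes (adjusted p 0.181 for Grik5 and 0.0936 for Gabbr2). Single times against 0 h called 3 members in STM at 18 h (Gabbr1 at 1.16 ± 0.32, adjusted p 0.0247, Gria1 at 2.07 ± 0.43, 0.00733, and Grik5 at 1.31 ± 0.30, 0.0107) against 8.72% of all genes, and Gabbr2 in LIV at 18 h (1.02 ± 0.28, 0.0267) against 2.17%. In iBAT at 22 h Gabbr1 was called lower, 1 of 4 members against 29.7% of all genes, which is near the background. With the lane as a covariate, the members called in STM and LIV lost their calls, with wider errors and log2 fold changes of 1.43 ± 0.60 for Gabbr1 in STM and 0.85 ± 0.51 for Gabbr2 in LIV.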

How the data were processed

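Gene counts of 162 libraries deposited by the authors were used as given. Per the labels, the authors aligned reads with TopHat2 2.1.1 and counted them with HTSeq 0.9.1. The strand setting of counting is not stated. Of 53686 genes, 15167 had no count in any library. The 5 libraries that failed the authors' quality control were left out (replicate 3 of 8 h and replicate 1 of 18 h in BRN, replicate 3 of 12 h in STM, replicate 1 of 22 h in iBAT, replicate 2 of 22 h in psWAT). CPM are counts divided by the library's total count and scaled, and level per kb divides by the union of exons in a reference annotation of GRCm38, which may not be the release the authors used. A count of 3 per library was taken as the floor. Precision is limited by 3 mice per time, and by 2 where a library was left out.

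Tests were run in R 4.3.3 with edgeR 4.0.16 (TMM scaling, quasi-likelihood F-test, robust), on genes with a CPM equal to 10 counts in the median library in at least 3 libraries. P values were adjusted by Benjamini-Hochberg over all genes tested. Region and single-time calls needed an adjusted p under 0.05 and a log2 fold change above 1 in size, and joint, trend and interaction calls an adjusted p under 0.05. Trends are per 10 h. Named with statistics were up to 5 members per test and direction: region calls by size of log2 fold change, fasting calls by adjusted p. Other named members were chosen after their values were seen. Some genes are not reported here. The members and the marker and synapse lists were chosen with earlier results of these data known.

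Alternatives were DESeq2 1.42.0, RLE scaling, no filter, no fold threshold, all libraries, 0 h only, each library left out in turn, lane or library series (2 blocks of numbers in the library names, A and B) as a covariate, BRN series B alone, exon-length offsets, and blocks by animal or replicate number with limma 3.58.1. Those chosen after seeing the data left out a BST pair, 18 h in OB, 0 h in CBL, BRN, or a psWAT library with DESeq2, took series A alone for the regions, or the lane as a covariate in STM and LIV. A further alternative left out BRN replicate 3 of 2 h and replicate 2 of 18 h, and the reason for this choice is not given here. The labels give each library an animal number, and each of the 18 animals gave 9 organs. After time was removed, the median correlation between regions of the same animal was 0.01 to 0.04 against about 0.00 for different animals. The fits were tested on simulated data, whose results are not given here.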

Additional observations from a re-analysis of the deposited data

Results flagged for a closer look

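The interaction test of the fasting trend between OB, BRN, CBL and BST singled out the members named here, because their slopes differed between the regions at an adjusted p under 0.05 (edgeR). The adjusted p was 0.00196 for Grik3, 0.00204 for Gria4, 0.0021 for Grin2b, 0.0041 for Gabrd, 0.00514 for Gabbr2, 0.00533 for Grin2a and 0.00546 for Gria1. It was 0.00717 for Gabbr1, 0.0126 for Grm5, 0.0196 for Grm7, 0.0211 for Gria3 and 0.0232 for Grik5. Slopes in OB, BRN, CBL and BST were -0.06, -0.40, 0.21 and -0.07 log2 per 10 h for Grm5, and 0.07, 0.21, -0.01 and 0.01 for Grik5. All 3 BRN libraries of 0 h came from library series A, with 1 library of 2 h and 1 of 12 h. Without BRN the adjusted p of the members called ran from 0.0672 to 0.752. Of those named here, Gabbr1, Gabbr2, Gria1, Gria4 and Grik5 lost their call when the libraries that had failed quality control were kept. Gria3 and Grik5 lost it without BRN replicate 3 of 2 h and replicate 2 of 18 h.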

How the results depend on the processing

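Of 694 values of members picked by the naming rule under the alternatives, 623 kept their direction and their side of the threshold, 71 kept the direction but missed the threshold, and none reversed. The 71 included 11 fasting values with the library series as a covariate, 5 in series B alone and 10 with exon-length offsets. With exon-length offsets 1 other value kept its side of the threshold, and with the library series or series B alone none did. Where not stated, the cause was not tested. Without a fold threshold, members higher and lower numbered 19 and 17 in OB, 24 and 16 in BRN, 18 and 24 in CBL, and 21 and 20 in BST, by construction. Of all genes, 74.4, 78.2, 76.2 and 75.2% had an unadjusted p under 0.05 in the same comparisons, so most genes pass in this setting. With 0 h only, BRN had 11 and 3, but the shares of all genes in that fit are not given here, so these counts were not set against a background. Members called at any time in BRN numbered 0 with all libraries, with length offsets or with the library series, 6 with DESeq2 (12.7% of all genes) and 7 without a filter (7.23%). Without a filter 1 was called at any time in CBL and 1 in OB, where the shares of all genes are not given here. The joint test with DESeq2 called 15 in OB (22.5% of all genes), 5 in BRN (9.42%), 9 in CBL (11.1%), 2 in BST (1.26%), 5 in STM (17.2%), 1 in iBAT (40.4%), 3 in LIV (25.6%) and 2 in psWAT (12.3%), where it called 1 (18.9%) without replicate 3 of 12 h, an alternative chosen after seeing the data. With the lane as a covariate, chosen likewise, the joint test by edgeR called 0 in STM and 0 in LIV. Without a filter it called 15, 13, 10 and 4 in OB, BRN, CBL and BST (14.2, 7.00, 8.09 and 2.45% of all genes). In OB it called 4 with the lane, 4 with length offsets and 0 without 18 h, and in BST 2 without the pair. The trend in BRN called 9 with DESeq2 (14.3%), 1 with length offsets, 1 without replicate 3 of 2 h and replicate 2 of 18 h, and 0 with all libraries, with the library series or in library series B alone. DESeq2 called a trend for 3 in CBL (4.59%) and 2 in OB (1.46%). Length offsets called one for 2 in CBL (Gabrb2 and Gria2), where the share of all genes is not given here. The interaction called 7 with all libraries and 0 without BRN. Leaving out 1 library at a time gave joint counts of 3 to 15 in OB, 0 to 9 in BRN, 0 to 8 in CBL and 0 to 2 in BST (by replicate number, 0 to 1 in STM and 0 to 2 in LIV), any-time counts of 0 to 15 in BRN, and trend counts of 0 to 1 in OB, 0 to 14 in BRN, 0 to 2 in CBL and 0 to 1 in BST. Where this left 1 library at a time, that library was taken to vary like the others.

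With the replicate number as a block, the counts were 6 at any time and 11 for the trend in BRN, and for the joint test 12 in OB, 6 in CBL, 1 in iBAT and 1 in LIV. The shares of all genes in these fits are not given here, so the counts were not set against a background. Within an organ, libraries with the same replicate number came from different mice, and after time was removed their median correlation was -0.17 in psWAT to 0.09 in iBAT. The block by animal changed no region calls other than those of Gabrr2 and Grin3b in BRN, and called 14 in the interaction, Grm3 in addition. The share of all genes called in the interaction with this block is not given here either.

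Mice numbered at most 3 per time, and the fasting counts changed when a single library was left out, with the library series as a covariate or with exon-length offsets. With 0 h only, 13 of 16 region calls were kept in OB, 8 of 13 in BRN, 20 of 22 in CBL and 14 of 16 in BST, none with the opposite sign. Gabra6, Gabrr3 and Grm6 never exceeded 3 counts per library in OB, so changes in them with fasting were not detectable there at this depth. Where exons of another gene overlap on the opposite strand (11.1% of the exon bases of Grm6, 13.5% of Grin1, 9.66% of Grin2d, 9.60% of Grm2), counts are uncertain, as the strand setting of counting is not stated.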

Other observations

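Gabrb2 ran from 6.65 to 120.3 CPM in OB and from 5.71 to 89.8 in BRN. Set beside the slope of each library on exon length, a relation chosen after the values were seen and so given without a test, the OB library with the lowest slope (-0.15, replicate 1 of 18 h) had 6.65 CPM and the one with the highest (0.07, replicate 3 of 8 h) 117.5. In BRN the 3 libraries with the lowest slopes (-0.18, -0.16 and -0.13) had 6.16, 5.71 and 6.79 CPM, and the 3 with the highest (0.15, 0.16 and 0.20) had 66.5, 53.7 and 89.8. In CBL, with slopes of -0.05 to 0.06, Gabrb2 ran from 171.2 to 231.5 CPM, and in BST, with slopes of -0.04 to 0.02, from 35.5 to 112.4. The BST library with 112.4 CPM (replicate 2 of 0 h) had a slope of -0.03, next to -0.04 in the one with 35.5 (replicate 1 of 0 h).

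In psWAT, replicate 3 of 12 h had 649 CPM of Gabra6, against at most 1.24 in every other psWAT library. The 14 cerebellar genes summed to 6336 CPM in it, with Cbln3 at 1067 and Pcp2 at 328, and the 10 neuron genes to 5616. The members took 0.434% of its counts. The joint test called 0 members in psWAT with and without it, by edgeR. DESeq2 called Gria3 and Grik5, with 77.5 and 74.7 CPM in this library against at most 20.6 and 37.1 in the others, and without it Grik5 alone. In iBAT, Gabbr1 had 7.83, 23.6 and 16.9 CPM at 0 h and 1.58 and 6.56 at 22 h (log2 fold change -1.96 ± 0.53, adjusted p 0.00827), where 29.7% of all genes were called, and the library left out at 22 h had 20.7. The 22 h library with 1.58 was the 1 iBAT library kept from series B, and all of 0 h were of series A.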
